A study of Homo sapiens with 12 samples.

Results

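Type I interferon-stimulated genes are the genes that a cell switches on when an interferon of the alpha or beta type binds its surface receptor. The receptor, made of IFNAR1 and IFNAR2, activates the kinases JAK1 and TYK2, which phosphorylate STAT2. It acts with IRF9 in a complex that binds interferon-stimulated response elements in promoters, and the products of the genes switched on in this way bind viral RNA, block viral entry or budding, modify proteins or feed back on the pathway. A list of 41 such genes was taken by symbol from the 28100 genes of the count table, and all 41 were present. The list covers the IFIT, OAS, MX and IFITM families, BST2, IFI6, IFI27, IFI35, IFI44 and IFI44L, ISG15 with HERC5, HERC6 and USP18, the transducers and sensors STAT2, IRF7, IRF9, IFIH1, DHX58 and EIF2AK2, PARP9, DTX3L, PARP14, TRIM21 and TRIM22, and SAMD9, SAMD9L, RSAD2, CMPK2, ISG20, ADAR and XAF1.

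Their transcripts were counted by sequencing poly(A) RNA of MV3 cells, a human melanoma line kept in culture. In 12-well plates, the cells spent 3 h in RPMI with serum at 1% from which EVs had been removed, and were then treated for 24 h with extracellular vesicles (EVs), membrane particles that cells shed. The 4 groups were M1 EV, M2 EV and M0 EV, each given 1e10 particles per well from macrophages made from the leukaemic monocyte line THP-1 and brought to the named polarization state, and Ctrl, given PBS. Each group had 3 libraries, and all groups shared the cell line, medium, plate format and time. The macrophages had been polarized for 48 h and the vesicles isolated by ultracentrifugation. The labels name no polarizing agent and do not say whether replicates were separate cultures, wells or vesicle preparations, so p-values measure the spread between these libraries, which may be technical.

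Libraries held 9694843 to 14379738 counts in genes. Levels are given as CPM, that is, counts scaled to the library total with TMM factors, in the order of replicates 1, 2 and 3. Of the 41 members, 35 passed the filter on low counts and were tested, each together with all 13116 tested genes, by edgeR's quasi-likelihood test with Benjamini-Hochberg adjustment. Calls were made where the adjusted p was below 0.05. The cells carried the melanoma markers unevenly: of 13 markers, 4 were tested (AXL, MCAM, CSPG4 and MLANA), DCT, TYR and S100B had 0 counts in all 12 libraries, SOX10 had 2 counts and MITF 104. The pigment enzymes TYR and DCT and the lineage factor SOX10, which define melanocytic cells, were thus at or near 0.

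The promoters of the members with the largest called changes are shown first, because some members of each direction carried the same kind of element. Not all of them did, and 13 of 20 tested members that were not called carried it too. RefSeq's promoter table (GRCh38.p14) held 32 of the 41 members, and for IFIT2 no sequence is printed. The 250 bases before the annotated start are printed 5′ to 3′ on the gene's strand. Capitals mark the core of an interferon-stimulated response element, searched on both strands as GAAA, any 2 bases and GAAA again, or a gamma-activated site, an element of the response to interferon gamma, searched as TTCNNNGAA, which reads the same on both strands. The first 3 genes were lower and the last 3 higher in M1 EV than in Ctrl libraries.
IFIT1: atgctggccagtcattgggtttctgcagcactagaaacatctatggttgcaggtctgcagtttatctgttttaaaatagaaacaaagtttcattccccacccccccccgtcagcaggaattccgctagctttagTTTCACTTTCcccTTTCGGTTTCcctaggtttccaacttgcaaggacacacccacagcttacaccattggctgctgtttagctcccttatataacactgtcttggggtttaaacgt
SAMD9L: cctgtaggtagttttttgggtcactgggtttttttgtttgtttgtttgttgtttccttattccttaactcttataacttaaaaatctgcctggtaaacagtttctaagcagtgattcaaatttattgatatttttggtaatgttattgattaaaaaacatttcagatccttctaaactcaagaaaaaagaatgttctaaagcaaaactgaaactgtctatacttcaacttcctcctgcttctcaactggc
SAMD9: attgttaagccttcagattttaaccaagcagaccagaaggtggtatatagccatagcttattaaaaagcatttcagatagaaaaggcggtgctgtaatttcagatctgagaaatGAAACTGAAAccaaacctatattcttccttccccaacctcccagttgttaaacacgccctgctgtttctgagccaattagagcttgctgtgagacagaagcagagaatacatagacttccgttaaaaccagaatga
IRF9: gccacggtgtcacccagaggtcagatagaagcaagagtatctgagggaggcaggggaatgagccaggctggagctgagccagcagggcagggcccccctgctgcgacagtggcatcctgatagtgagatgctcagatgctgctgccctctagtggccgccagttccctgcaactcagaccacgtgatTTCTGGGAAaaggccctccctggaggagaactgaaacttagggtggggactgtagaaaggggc
OAS3: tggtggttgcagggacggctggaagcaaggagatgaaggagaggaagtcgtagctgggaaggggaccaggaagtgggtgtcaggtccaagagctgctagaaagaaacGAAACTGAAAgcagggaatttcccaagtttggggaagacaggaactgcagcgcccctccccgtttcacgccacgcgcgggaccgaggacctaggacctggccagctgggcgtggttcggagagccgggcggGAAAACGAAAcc
IFI44: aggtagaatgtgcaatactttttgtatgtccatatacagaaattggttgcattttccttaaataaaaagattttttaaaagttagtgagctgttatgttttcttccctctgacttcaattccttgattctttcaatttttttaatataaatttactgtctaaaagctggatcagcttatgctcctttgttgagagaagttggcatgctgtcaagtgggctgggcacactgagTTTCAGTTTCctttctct

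The window of IFIT1 (chr10:89392373-89392622, plus strand) held 2 response element cores, that of SAMD9 (chr7:93117980-93118229, minus strand) held 1, and that of SAMD9L (chr7:93148386-93148635, minus strand) held neither motif. OAS3 (chr12:112938224-112938473, plus strand) had 2 cores, IFI44 (chr1:78649539-78649788, plus strand) had 1, and IRF9 (chr14:24161015-24161264, plus strand) had a gamma-activated site and no core. The bases just after the RefSeq starts of IFI44 and SAMD9L were in none of the transcripts of these genes in GENCODE release 29, so the place of their windows depends on the annotation. Over the window from 250 bases before to 50 bases after the start, 21 of the 32 members (65.6%) held a core, against 996 of all 27305 promoters (3.65%). A gamma-activated site was in 7 of the 32 (21.9%), against 7.88% of all promoters. By call in M1 EV against Ctrl, a core was in 4 of the 5 promoters of higher members, in 2 of the 3 of lower members and in 13 of the 20 of tested members that were not called. A gamma-activated site was in 2 of the 5 of higher members, in 0 of the 3 of lower members and in 4 of the 20 that were not called. These splits rest on 5 and 3 promoters and were not tested. A match is a description of the letters and not a measured binding site.

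**Figure D1:**
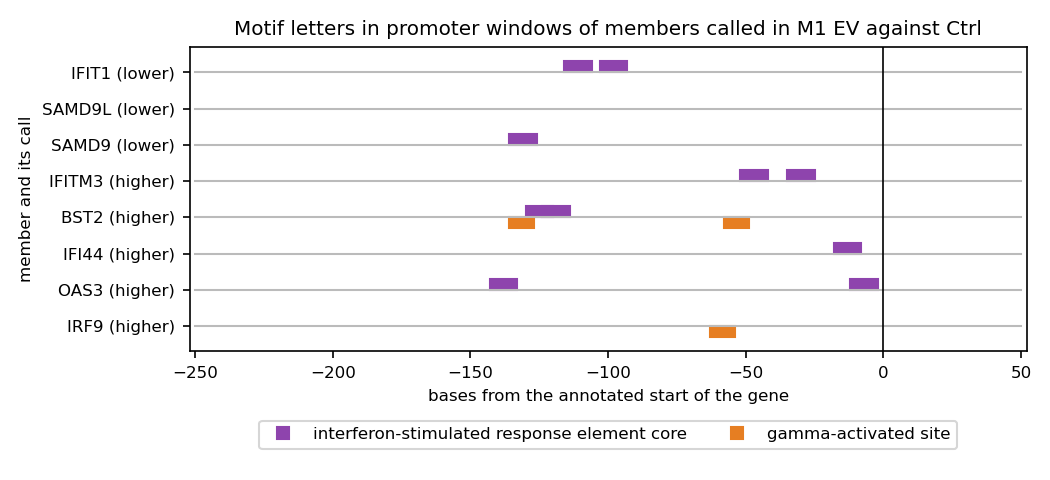
Motif letters in the promoter windows of the 8 members called in M1 EV against Ctrl that the promoter table holds, by distance in bases from the annotated start (vertical line). Purple boxes above a line are response element cores (GAAA, any 2 bases and GAAA on either strand) and orange boxes below it are gamma-activated sites; IFITM3 holds 2 cores, BST2 holds 2 overlapping cores and 2 gamma-activated sites, and SAMD9L holds none of them.

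In Ctrl libraries the members differed widely in level. Per kilobase of transcript in Ctrl libraries, 38 members had an annotated length in GENCODE release 29, and the mean level was highest for IFITM3 at 306 ± 14.3 CPM per kb (SD, n = 3). IFITM2 followed at 187 ± 1.69, BST2 at 177 ± 6.44 and ADAR at 119 ± 1.87 CPM per kb. The levels fell steeply after ADAR. ISG15, a ubiquitin-like protein joined to other proteins, stood at 48.1 ± 1.22 and EIF2AK2, the kinase PKR, at 32.7 ± 0.679 CPM per kb. The middle of the order held OAS3 at 9.06 ± 0.481, IRF9 at 8.32 ± 0.486, SAMD9 at 7.32 ± 0.138, IFIT2 at 4.11 ± 0.341 and IFIT1 at 2.72 ± 0.183 CPM per kb. DTX3L at 19.7 ± 0.602 and TRIM21 at 19.5 ± 0.816 CPM per kb, next to each other in the order, differed by less than their SDs. IFITM1, IFITM2 and IFITM3 are close paralogs, so reads may be split among them, and their levels are uncertain.

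At the bottom, 6 members were too low to test. Over the 12 libraries together, RSAD2 (viperin, a radical enzyme) and its neighbour CMPK2 had 3 counts each, IFI27 had 41, HERC5 had 47, MX2 had 56 and TRIM22 had 69 counts. RSAD2 had 1 count in each of the M1 EV, M2 EV and M0 EV groups and 0 in Ctrl, where 0 counts over 3 libraries allow up to 0.0971 CPM. Among the tested members, 11 had a mean under 5 CPM, including MX1, OAS1, OASL, USP18 and IFI44L. MX1, a GTPase that traps viral nucleocapsids, had 1.03, 0.547 and 0.588 CPM in M1 EV libraries, 0.586, 1.46 and 1.22 in M2 EV, 1.47, 0.994 and 0.443 in M0 EV and 1.00, 0.616 and 0.444 in Ctrl libraries. Its 4 groups overlapped, with 119 counts in all.

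**Figure D2:**
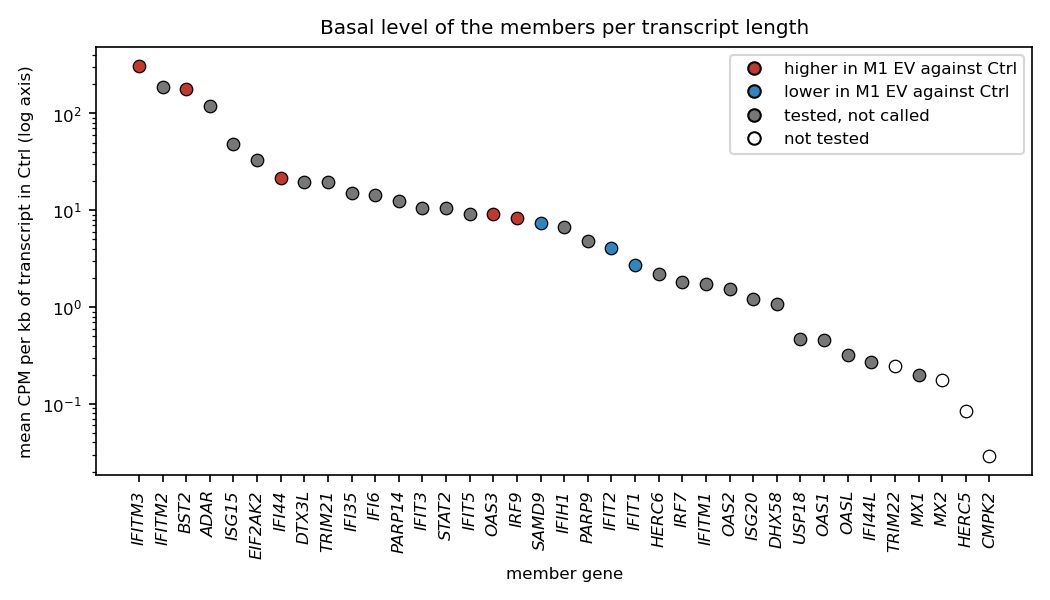
Mean level of each member in the 3 Ctrl libraries, in CPM per kilobase of transcript on a log axis, with the members ordered by level. Red and blue points are members called higher and lower in M1 EV than in Ctrl, grey points were tested and not called, and white points were not tested; RSAD2, at 0 in Ctrl, and the 3 members without an annotated length (SAMD9L, IFI27 and XAF1) are not drawn.

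M1 EV against Ctrl asked whether vesicles of M1 macrophages move these genes in melanoma cells. The members moved in both directions, and the larger changes among the called members were decreases. IFIT2 and IFIT1, which bind RNA and the translation machinery, fell to means of 7.05 and 6.56 CPM in M1 EV libraries, against 14.3 and 12.6 CPM in Ctrl libraries. SAMD9L and SAMD9 fell as well, and OAS3, IRF9, IFI44, BST2 and IFITM3 rose. Of the 35 tested members, 5 were called higher and 4 lower, that is 25.7%, where 28.1% of all tested genes were called (14.3% higher, 13.7% lower). The share called among the members was thus near that of all genes. The median log2 fold change was 0.083 over the tested members and 0.00077 over all genes, with 20 members above 0 and 15 below.

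**Figure D3:**
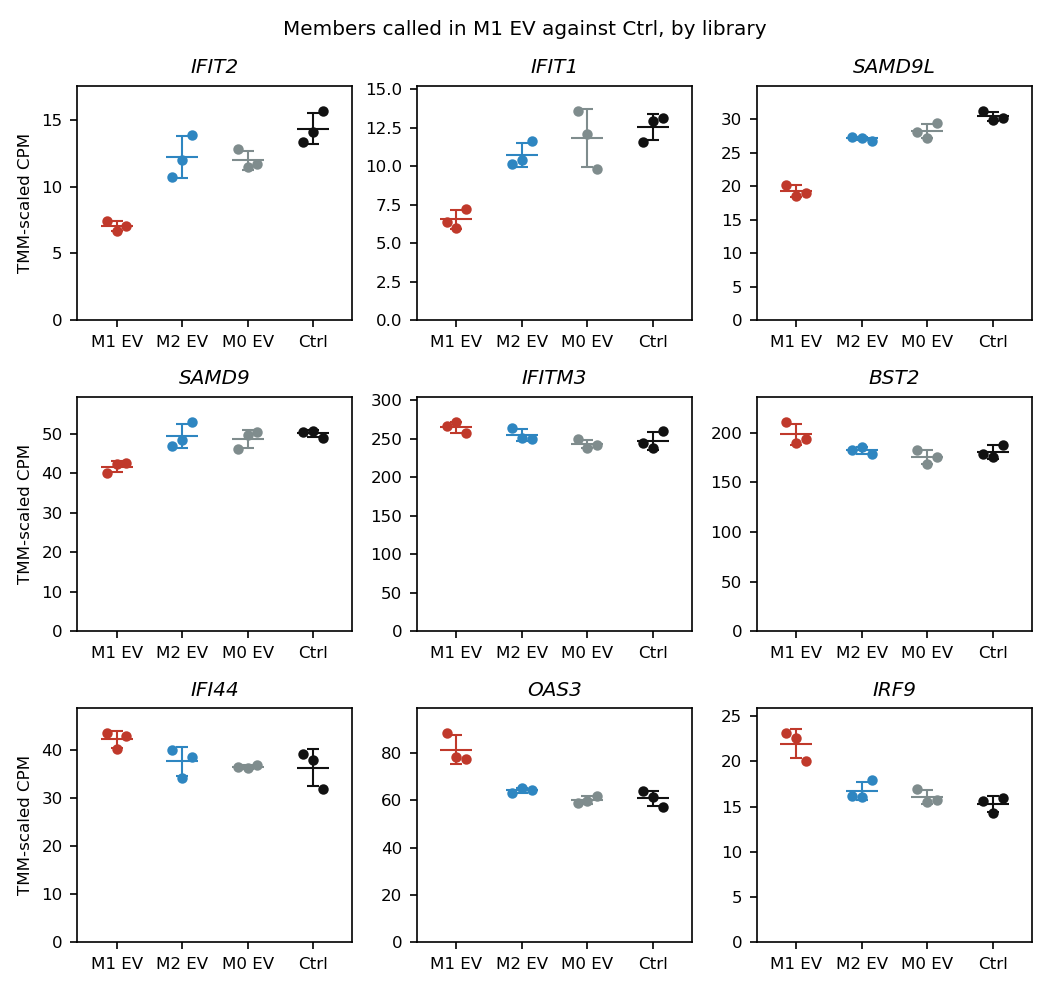
TMM-scaled CPM in each library for the 9 members called in M1 EV against Ctrl, from the lowest to the highest log2 fold change, with points for the 3 libraries of each group and lines for the mean and SD. The M1 EV libraries of IFIT2, IFIT1, SAMD9L and SAMD9 lie below all the others, and those of OAS3, IRF9, IFI44 and BST2 lie above all the others; IFITM3 overlaps.

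Among the RNA-binding IFIT proteins, IFIT2 showed the largest change of all members. IFIT2 had 7.43, 6.66 and 7.06 CPM in M1 EV libraries, 10.7, 12.0 and 13.9 in M2 EV, 12.8, 11.4 and 11.7 in M0 EV and 13.3, 14.1 and 15.6 in Ctrl libraries. Every M1 EV library lay below every other library. The log2 fold change of M1 EV against Ctrl was -1.03 ± 0.11 (SE; adjusted p = 1.9e-09). IFIT1, which binds capped RNA lacking the host's methyl mark, had 6.40, 6.02 and 7.26 CPM in M1 EV libraries, 10.2, 10.4 and 11.7 in M2 EV, 13.6, 12.1 and 9.83 in M0 EV and 11.6, 12.9 and 13.1 in Ctrl libraries. Again the M1 EV libraries stood alone at the bottom, and the log2 fold change was -0.94 ± 0.12 (adjusted p = 1.01e-07). IFIT3, a partner of IFIT1, had 25.2, 23.0 and 23.6 CPM in M1 EV and 26.9, 25.7 and 27.4 CPM in Ctrl libraries. These 2 groups did not overlap, but the log2 fold change of -0.16 ± 0.070 did not pass the threshold (adjusted p = 0.0909). For IFIT5, with 34.1, 37.4 and 37.5 CPM in M1 EV and 35.4, 37.9 and 37.8 CPM in Ctrl libraries, the log2 fold change was -0.028 ± 0.062 (adjusted p = 0.792).

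The 4 IFIT genes lie together on chromosome 10 in GRCh38.p14, IFIT2 at chr10:89302046-89309271, IFIT3 at chr10:89327997-89340968, IFIT1 at chr10:89392623-89406487 and IFIT5 at chr10:89414568-89420997. All 4 overlap the span of LIPA in that RefSeq annotation, a lysosomal lipase gene, with which they shared no exonic bases in the basic set of GENCODE release 29. LIPA itself was lower in M1 EV than in Ctrl libraries (log2 fold change -0.28 ± 0.043, adjusted p = 2.14e-06), and its part in the IFIT values was not tested. IFIT2 shares 356 of its 4101 exonic bases with an annotated non-coding RNA on the same strand, so reads there could belong to either.

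SAMD9L (chr7:93130056-93148385) and SAMD9 (chr7:93099518-93117979), neighbours on chromosome 7 that restrict poxviruses and slow growth when overactive, both fell. SAMD9L had 20.2, 18.6 and 19.0 CPM in M1 EV libraries, 27.3, 27.2 and 26.8 in M2 EV, 28.0, 27.2 and 29.4 in M0 EV and 31.2, 29.8 and 30.2 in Ctrl libraries. The M1 EV values were far below the rest, and the M2 EV and M0 EV values also lay under every Ctrl value. In M1 EV against Ctrl the log2 fold change was -0.66 ± 0.068 (adjusted p = 6.2e-10). SAMD9 had 40.2, 42.5 and 42.6 CPM in M1 EV libraries, 47.1, 48.5 and 53.0 in M2 EV, 46.1, 49.7 and 50.5 in M0 EV and 50.6, 50.8 and 49.0 in Ctrl libraries. Its M1 EV libraries were again the lowest, with a smaller log2 fold change of -0.26 ± 0.057 (adjusted p = 0.000479).

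IRF9 (chr14:24161265-24166565) rose most among the called members that increased. It is the DNA-binding subunit of the complex that contains STAT2 and forms after type I interferon. IRF9 had 23.1, 22.6 and 20.1 CPM in M1 EV libraries, 16.2, 16.1 and 17.9 in M2 EV, 16.9, 15.5 and 15.8 in M0 EV and 15.6, 14.3 and 16.0 in Ctrl libraries. Every M1 EV library exceeded all others, and the log2 fold change against Ctrl was 0.52 ± 0.082 (adjusted p = 4.09e-06). The basic set of GENCODE release 29 places 1838 of the 1965 exonic bases of IRF9 also in another protein-coding locus on the same strand, so the counts cannot be assigned to IRF9 alone. Its partner STAT2 had 32.6, 30.6 and 31.2 CPM in M1 EV and 38.0, 30.7 and 34.2 CPM in Ctrl libraries, which overlapped (log2 fold change -0.13 ± 0.072, adjusted p = 0.198). IRF7, IFIH1, DHX58 and EIF2AK2, a transcription factor and sensors of foreign RNA, were not called, with log2 fold changes from -0.15 for DHX58 to 0.11 for IFIH1.

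The OAS enzymes make the messenger that activates RNase L. OAS3 (chr12:112938474-112973251) had 88.4, 78.3 and 77.3 CPM in M1 EV libraries, 63.1, 65.3 and 64.4 in M2 EV, 58.8, 59.9 and 62.0 in M0 EV and 63.8, 61.4 and 57.4 in Ctrl libraries. The M1 EV libraries were the highest without overlap, and the log2 fold change against Ctrl was 0.42 ± 0.052 (adjusted p = 2.93e-08). OASL, a relative without the enzyme activity, had 1.86, 1.46 and 1.18 CPM in M1 EV libraries, 0.781, 0.764 and 0.761 in M2 EV, 0.814, 0.994 and 0.532 in M0 EV and 1.30, 0.925 and 0.888 in Ctrl libraries. These low levels, 133 counts in all, overlapped between M1 EV and Ctrl (log2 fold change 0.53 ± 0.29, adjusted p = 0.234). OAS1 and OAS2, which flank OAS3 on chromosome 12 at gaps of 5255 and 5268 bases, had log2 fold changes of 0.21 ± 0.36 (adjusted p = 0.732) and 0.14 ± 0.20 (adjusted p = 0.649).

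Among the membrane proteins, BST2 (chr19:17402939-17405630), which tethers budding virions to the cell, had 211, 190.0 and 194 CPM in M1 EV libraries, 183, 185 and 178 in M2 EV, 183, 168 and 176 in M0 EV and 179, 175 and 188 in Ctrl libraries. The lowest M1 EV library was above the highest of the others by a small margin. The log2 fold change was 0.13 ± 0.040 (adjusted p = 0.0119). BST2 lost its call without M1 EV replicate 1, without Ctrl replicate 2 or on the sum over transcripts. It had 1 transcript, so that sum left its own counts unchanged. IFITM3 (chr11:319676-320860), which blocks fusion of viruses in endosomes, had 266, 271 and 257 CPM in M1 EV libraries, 263, 250.4 and 249.6 in M2 EV, 249, 238 and 242 in M0 EV and 244, 237 and 260.0 in Ctrl libraries. The M1 EV and Ctrl values overlapped, and the log2 fold change of 0.097 ± 0.037 was just past the threshold (adjusted p = 0.045). IFITM3 lost its call when any of M1 EV replicates 1 and 2 and Ctrl replicates 1 and 2 was left out, with DESeq2, with only the 2 groups in the fit and on the sum over transcripts, with adjusted p up to 0.258 over all settings tried. IFITM2, its close paralog, had 129, 117 and 118 CPM in M1 EV and 122, 124 and 124 CPM in Ctrl libraries, which overlapped (log2 fold change -0.022 ± 0.043, adjusted p = 0.763). IFITM1 had 4.34, 0.912 and 1.96 CPM in M1 EV and 1.40, 1.44 and 1.60 CPM in Ctrl libraries. Here M1 EV replicate 1 stood far above the other libraries, and the gene was not called (log2 fold change 0.65 ± 0.32, adjusted p = 0.138). IFI6, a mitochondrial and endoplasmic reticulum protein, showed the same library on top, with 19.6, 11.6 and 12.6 CPM in M1 EV libraries, 13.1, 11.7 and 11.7 in M2 EV, 12.2, 11.5 and 10.5 in M0 EV and 11.5, 11.3 and 13.0 in Ctrl libraries (M1 EV against Ctrl, log2 fold change 0.27 ± 0.12, adjusted p = 0.101).

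IFI44 (chr1:78649789-78664078), a GTP-binding protein next to IFI44L on chromosome 1, had 43.6, 40.2 and 42.9 CPM in M1 EV libraries, 40.0, 34.3 and 38.7 in M2 EV, 36.5, 36.3 and 37.0 in M0 EV and 39.2, 38.0 and 32.0 in Ctrl libraries. The M1 EV values were the highest by a narrow margin, and Ctrl replicate 3 was the lowest library. The log2 fold change was 0.22 ± 0.067 (adjusted p = 0.0115), with an adjusted p of 0.187 without Ctrl replicate 3. PARP9 and DTX3L, an ADP-ribosyltransferase and a ubiquitin ligase that work as a pair, share a promoter region and 217 exonic bases on opposite strands. PARP9 had 37.6, 35.8 and 36.7 CPM in M1 EV libraries, 31.1, 33.0 and 36.0 in M2 EV, 29.6, 32.1 and 30.8 in M0 EV and 29.6, 35.5 and 32.9 in Ctrl libraries. DTX3L had 124, 124 and 124 CPM in M1 EV libraries, 114, 110.1 and 120.3 in M2 EV, 109.6, 122 and 113 in M0 EV and 113, 114 and 119 in Ctrl libraries. For both the M1 EV libraries lay above the Ctrl libraries without passing the threshold, with adjusted p = 0.0574 for PARP9 (log2 fold change 0.17 ± 0.066) and 0.0826 for DTX3L (log2 fold change 0.10 ± 0.043). XAF1, a pro-apoptotic protein, had 1.96, 2.19 and 1.76 CPM in M1 EV libraries, 1.17, 0.902 and 1.90 in M2 EV, 0.977, 1.19 and 1.06 in M0 EV and 1.40, 1.23 and 1.07 in Ctrl libraries. Its M1 EV libraries were above the Ctrl libraries, at 185 counts over all libraries (log2 fold change 0.68 ± 0.27, adjusted p = 0.0637), and 2535 of its 3625 exonic bases are also in a transcript of the opposite strand.

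ISG15 was not called, and neither were ADAR and EIF2AK2, which had higher CPM and narrower errors. ISG15 had 37.1, 30.2 and 30.6 CPM in M1 EV and 30.6, 29.9 and 31.4 CPM in Ctrl libraries, which overlapped (log2 fold change 0.083 ± 0.073, adjusted p = 0.439). ADAR, the RNA-editing enzyme with an interferon-driven isoform, averaged 760.4 ± 17.3 CPM in M1 EV and 776 ± 12.2 CPM in Ctrl libraries (SD, n = 3 each; log2 fold change -0.030 ± 0.030, adjusted p = 0.522). EIF2AK2 averaged 141 ± 6.32 CPM in M1 EV and 142 ± 2.95 CPM in Ctrl libraries (log2 fold change -0.0090 ± 0.042, adjusted p = 0.904). The other members that were not called include TRIM21, an antibody receptor and ubiquitin ligase, whose M1 EV libraries at 35.6, 35.4 and 31.2 CPM lay under its Ctrl libraries at 39.2, 37.3 and 36.1 CPM (log2 fold change -0.14 ± 0.064, adjusted p = 0.113). PARP14, IFI35, ISG20 (an exonuclease), MX1, HERC6 and USP18 (which removes ISG15 from proteins) had log2 fold changes from -0.080 to 0.096, and IFI44L had 0.34 ± 0.24 (adjusted p = 0.377). The 26 tested members that were not called had log2 fold changes from -0.16 for IFIT3 to 0.68 for XAF1. In bulk RNA, a change in the share of cells that make a transcript and a change in its amount per cell cannot be told apart.

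**Figure D4:**
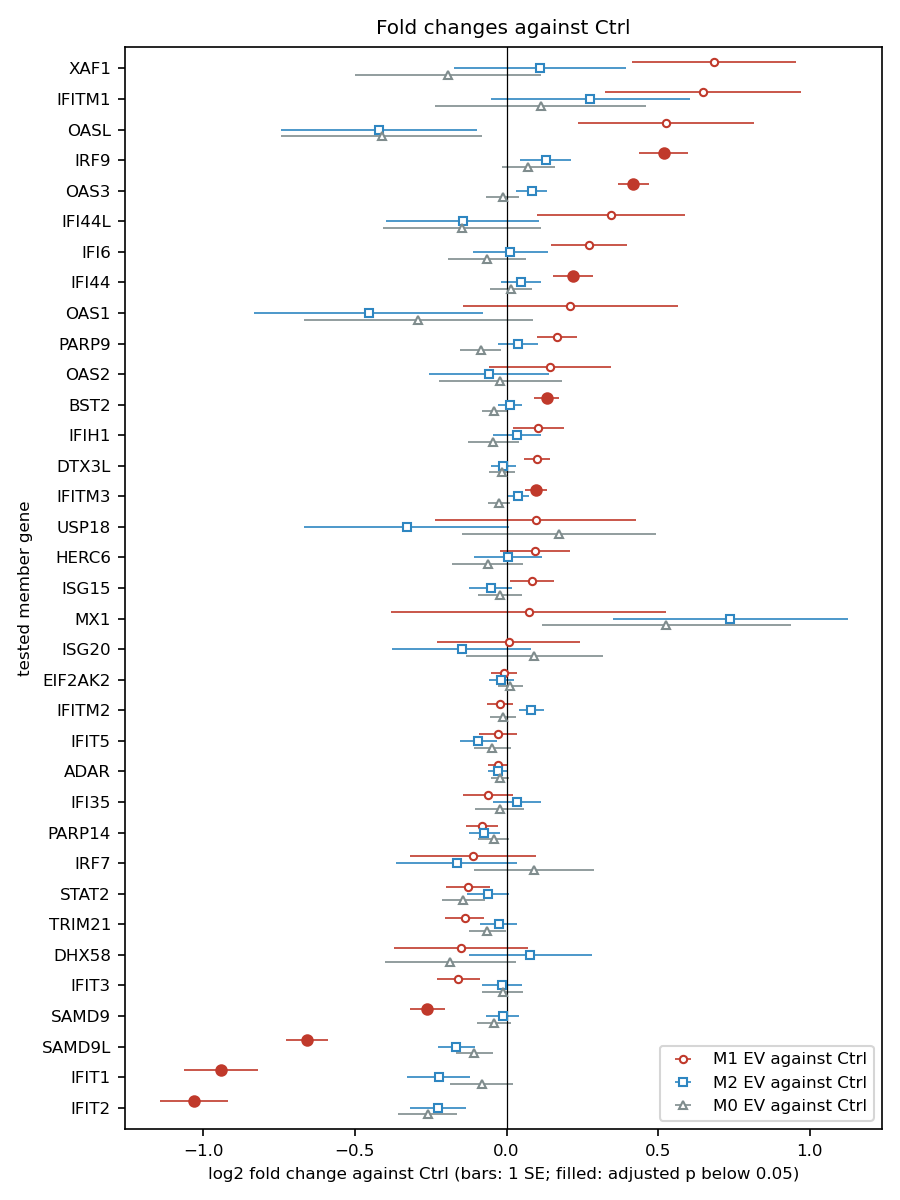
Log2 fold change of each of the 35 tested members against Ctrl for M1 EV (red circles), M2 EV (blue squares) and M0 EV (grey triangles), with bars of 1 SE and filled symbols at an adjusted p below 0.05. The 9 filled symbols are all of M1 EV against Ctrl, from IFIT2 at -1.03 to IRF9 at 0.52.

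M2 EV and M0 EV against Ctrl asked the same of the other vesicles. No member was called in either, nor in M2 EV against M0 EV, by edgeR, DESeq2 or limma-voom. Of all genes, 0.0457% were called in M2 EV against Ctrl, 0.0152% in M0 EV against Ctrl and 0% in M2 EV against M0 EV, so few genes of any kind were called. At an unadjusted p below 0.05, edgeR gave 814, 665 and 447 of all 13116 tested genes in these comparisons. DESeq2 gave 283, 228 and 110 and limma-voom gave 848, 699 and 459. Among the 35 tested members, edgeR gave 3, 1 and 1, DESeq2 gave 0 in each and limma-voom gave 3, 1 and 1. In M2 EV against Ctrl the 3 were SAMD9L (log2 fold change -0.17 ± 0.060, adjusted p = 0.623), IFIT2 (-0.23 ± 0.093, adjusted p = 0.72) and IFIT1 (-0.22 ± 0.10, adjusted p = 0.783). In M0 EV against Ctrl it was IFIT2 (-0.26 ± 0.096, adjusted p = 0.747), and in M2 EV against M0 EV it was IFITM2 (0.094 ± 0.041, adjusted p = 1). None of these passed the adjustment, and the comparisons share their Ctrl libraries. The median log2 fold change of the members was -0.014 in M2 EV against Ctrl and -0.040 in M0 EV against Ctrl, against 0.0013 and 0.0032 over all genes.

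M1 EV against M2 EV and M1 EV against M0 EV set M1 vesicles against vesicles of macrophages in other states, so that all cells compared had received vesicles. These comparisons share the M1 EV libraries with each other and with M1 EV against Ctrl and are therefore not independent of it. In M1 EV against M2 EV, 5 members were called higher (BST2, IFI44, IRF9, OAS3 and OASL) and 4 lower (IFIT1, IFIT2, SAMD9 and SAMD9L), that is 25.7% of the 35, where 24.6% of all genes were called (12.6% higher, 12% lower). In M1 EV against M0 EV, 10 were called higher and the same 4 lower, that is 40.0%, where 25.3% of all genes were called (12.5% higher, 12.8% lower). The 10 were BST2, IFI44, IRF9, OAS3, OASL, IFITM3, IFI6, DTX3L, PARP9 and XAF1. The 4 genes called higher in all 3 comparisons were BST2, IFI44, IRF9 and OAS3, and the 4 called lower in all 3 were IFIT1, IFIT2, SAMD9 and SAMD9L.

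The sizes were similar for the strongest members. IFIT2 had log2 fold changes of -0.81 ± 0.11 (adjusted p = 4.56e-07) against M2 EV and -0.77 ± 0.12 (adjusted p = 1.84e-06) against M0 EV. IFIT1 had -0.72 ± 0.12 (adjusted p = 1.87e-05) and -0.86 ± 0.12 (adjusted p = 6.95e-07), and SAMD9L had -0.49 ± 0.067 and -0.55 ± 0.068, in the same order. On the higher side, OAS3 had 0.33 ± 0.049 (adjusted p = 1.4e-06) against M2 EV and 0.43 ± 0.051 (adjusted p = 1.34e-08) against M0 EV. IRF9 had 0.39 ± 0.076 (adjusted p = 0.000147) and 0.45 ± 0.079 (adjusted p = 3.25e-05). The largest log2 fold change among the rising members was that of OASL, at 0.95 ± 0.30 against M2 EV (adjusted p = 0.0224) and 0.94 ± 0.30 against M0 EV (adjusted p = 0.0287), from libraries of 12 to 18 counts in M1 EV, 8 to 11 in M2 EV and 6 to 10 in M0 EV.

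The further members called against M0 EV were modest or low in count. XAF1 had a log2 fold change of 0.88 ± 0.27 (adjusted p = 0.0156), PARP9 0.25 ± 0.066 (adjusted p = 0.00377) and DTX3L 0.11 ± 0.043 (adjusted p = 0.0472). IFI6 had 0.34 ± 0.12 (adjusted p = 0.0398) with overlapping groups. BST2, IFI44 and IFITM3 had 0.17 ± 0.040, 0.20 ± 0.066 and 0.12 ± 0.037, with adjusted p = 0.00121, 0.0181 and 0.0112 in that order. Against M2 EV, BST2 had 0.12 ± 0.040 (adjusted p = 0.0218) and IFI44 had 0.17 ± 0.064 (adjusted p = 0.0434).

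**Figure D5:**
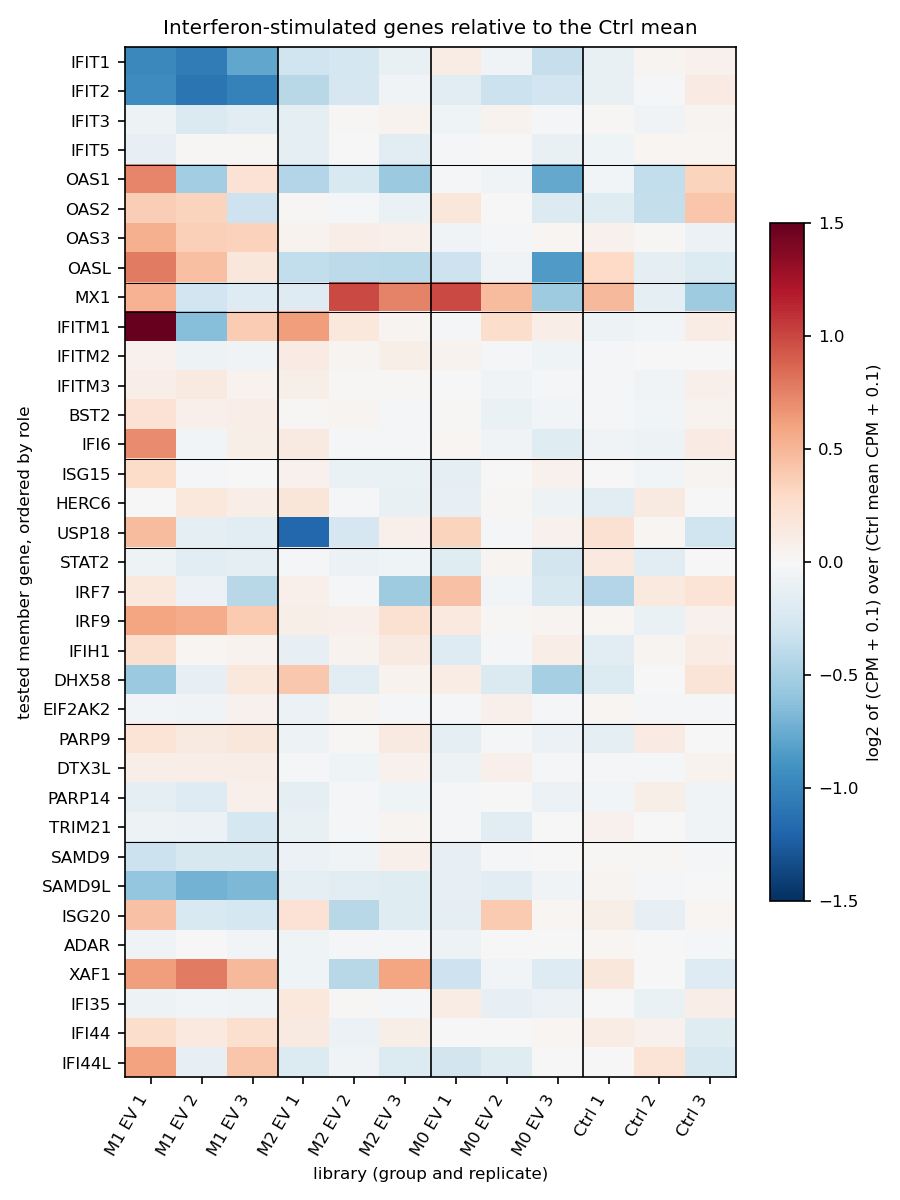
Level of each of the 35 tested members in each library relative to the mean of the Ctrl libraries, as log2 of (CPM + 0.1) over (Ctrl mean CPM + 0.1), with members in rows grouped by role and libraries in columns grouped as M1 EV, M2 EV, M0 EV and Ctrl. The M1 EV columns are blue at IFIT1, IFIT2, SAMD9 and SAMD9L and red at OAS3, IRF9 and XAF1, and M1 EV replicate 1 is the reddest of its group at IFITM1, IFI6 and OAS1.

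The counts of higher members depended on which libraries were kept, M1 EV replicate 1 among them. With any 1 library of either group left out, 6 to 8 members were called higher in M1 EV against M0 EV, against 10 with all. M1 EV replicate 1 had the highest value of its group for 24 of the 35 tested members, replicate 2 for 5 and replicate 3 for 6. The same was not counted over all tested genes, so it cannot be called particular to the members. For IFITM1, M1 EV replicate 1 held 42 counts, against 10 and 20 in replicates 2 and 3. Without it, 3 members were called higher against Ctrl, 2 against M2 EV and 6 against M0 EV, and 4, 5 and 4 were called lower. Calls among all genes fell as well, to 3095, 2606 and 2712 in that order, from 3682, 3227 and 3323 with all libraries. IFIT1, IFIT2, SAMD9, SAMD9L, OAS3 and IRF9 were called in all 3 comparisons without M1 EV replicate 1. Without M2 EV replicate 2, 3 members were called higher in M1 EV against M2 EV, where 2550 of all genes were called. In M1 EV against M0 EV, leaving out a library ended the call of IFI6 (M1 EV replicate 1 or M0 EV replicate 2 or 3), of OASL (M1 EV replicate 1 or 2 or M0 EV replicate 1 or 3), of XAF1 (M1 EV replicate 2 or M0 EV replicate 1), of IFITM3 (M1 EV replicate 2 or M0 EV replicate 2), of IFI44 (M1 EV replicate 1 or 3) and of DTX3L (any M1 EV library or M0 EV replicate 1 or 3). In M1 EV against M2 EV it ended the call of BST2 (M1 EV replicate 1 or M2 EV replicate 3), of IFI44 (M1 EV replicate 1 or 3 or M2 EV replicate 2) and of OASL (M1 EV replicate 1 or M2 EV replicate 2 or 3).

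The genes above and beside the members in the pathway were read from lists of their own. Their counts in M1 EV against Ctrl stand beside the 28.1% called among all tested genes (14.3% higher, 13.7% lower), whose median log2 fold change was 0.000766, and the lists were not tested as sets. Of 21 type I and III interferon genes, 18, IFNB1 among them, had 0 counts in all 12 libraries, which allows up to 0.0225 CPM over the 12, and only IFNE was tested (log2 fold change -0.051 ± 0.41, adjusted p = 0.947). Of 14 receptor and JAK-STAT genes, 12 were tested in M1 EV against Ctrl, and 4 were higher and 2 lower (50% called, against 28.1% of all tested genes), with a median log2 fold change of 0.14. IFNAR1 had 55.3, 56.2 and 58.7 CPM in M1 EV and 48.8, 52.4 and 49.2 CPM in Ctrl libraries, and IFNAR2 had 13.6, 11.4 and 14.8 CPM in M1 EV and 10.6, 11.4 and 9.59 CPM in Ctrl libraries. The M1 EV and Ctrl libraries did not overlap for IFNAR1 and overlapped at their edges for IFNAR2. Both receptor chains rose, IFNAR1 by 0.18 ± 0.057 (adjusted p = 0.0143) and IFNAR2 by 0.33 ± 0.11 (adjusted p = 0.0145) on the log2 scale. STAT3, the transducer of interleukin-6, rose by 0.26 ± 0.036 (adjusted p = 3.8e-07), while JAK1 had a log2 fold change of -0.14 ± 0.036 (adjusted p = 0.00204).

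Of 9 interferon regulatory factors and relatives outside the members, 5 were tested and 2 rose (40.0% called, against 28.1% of all tested genes), with a median log2 fold change of 0.16. They were IRF2BP2, a corepressor of IRF2 (log2 fold change 0.25 ± 0.041, adjusted p = 8.85e-06), and IRF3, which drives the interferon beta gene (0.16 ± 0.059, adjusted p = 0.0356). IRF1, a transcription factor that interferon gamma induces, had 64.6, 60.2 and 61.1 CPM in M1 EV and 65.4, 63.1 and 64.5 CPM in Ctrl libraries and was not called (log2 fold change -0.055 ± 0.047, adjusted p = 0.428). Of 20 nucleic acid sensors and adaptors, 17 were tested, and 7 were higher and 1 lower (47.1% called, against 28.1% of all tested genes), with a median log2 fold change of 0.014. AIM2, an inflammasome sensor of DNA, had 2.07, 1.28 and 1.47 CPM in M1 EV and 0.200, 0.514 and 0.266 CPM in Ctrl libraries, the largest change of the list at 2.26 ± 0.40 (adjusted p = 2.63e-05). The kinase IKBKE rose by 0.49 ± 0.089 (adjusted p = 3.35e-05), the adaptor TRAF3 by 0.45 ± 0.038 (adjusted p = 3.09e-12) and the DNA sensor IFI16 by 0.19 ± 0.038 (adjusted p = 0.000248). Of 12 negative regulators, 10 were tested, and 4 were higher and 1 lower (50% called, against 28.1% of all tested genes), with a median of 0.11. SOCS3, an inhibitor of JAK kinases, rose by 0.26 ± 0.064 (adjusted p = 0.00155), the phosphatases PTPN2 and PTPN11 rose by 0.25 ± 0.066 and 0.17 ± 0.037 (adjusted p = 0.00317 and 0.0003), and PIAS3, which inhibits STAT3, had -0.15 ± 0.049 (adjusted p = 0.0219).

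Markers of macrophages, the source of the vesicles, were read as well. Of 28 markers, 4 were tested (CTSS, CD68, CD74 and CORO1A), 10 had 0 counts in all 12 libraries, among them CD163, C1QA, C1QB, C1QC, TYROBP and HLA-DRA, and PTPRC, LYZ and SPI1 had 2 counts each. The summed level of the 28 markers was 86.3 to 87.3 CPM in M1 EV, 73.9 to 76.7 in M2 EV, 70.9 to 74.4 in M0 EV and 69.2 to 75.5 in Ctrl libraries. Most of each sum was CD68, with means of 66.9 CPM in M1 EV and 56.7 CPM in Ctrl libraries. CTSS, a lysosomal protease, had 4.03, 2.19 and 3.53 CPM in M1 EV and 0.500, 1.03 and 0.888 CPM in Ctrl libraries (log2 fold change 1.98 ± 0.28, adjusted p = 7.23e-07). CD68, a lysosomal membrane protein, had 66.6, 67.7 and 66.3 CPM in M1 EV and 54.1, 60.9 and 55.2 CPM in Ctrl libraries and a log2 fold change of 0.24 ± 0.050 (adjusted p = 0.000244). The other tested markers were not called against Ctrl. CD74, the invariant chain of class II molecules, had 12.0, 13.1 and 14.9 CPM in M1 EV and 11.6, 10.1 and 11.5 CPM in Ctrl libraries (log2 fold change 0.27 ± 0.11, adjusted p = 0.0554). CORO1A, an actin-binding protein of leukocytes, had 1.86, 2.10 and 1.27 CPM in M1 EV and 1.60, 1.85 and 2.31 CPM in Ctrl libraries, with a fold change of the opposite sign (-0.14 ± 0.26, adjusted p = 0.741). Against M2 EV and against M0 EV, CTSS, CD68 and CD74 were called higher in M1 EV, and CORO1A was not called. That is 75% of the 4 tested, where 24.6% and 25.3% of all genes were called. CD74 had log2 fold changes of 0.32 ± 0.10 (adjusted p = 0.0186) and 0.37 ± 0.11 (adjusted p = 0.00787), in that order. The part of macrophage RNA in the members' changes was not tested beyond these levels.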

How the data were processed

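Libraries were directional and poly(A)-selected and were sequenced on a NovaSeq X Plus, per the labels' protocols. The submitters' processing notes list the aligner STAR (2.6.1b), HOMER (4.10) and hg38 with no role for each. No source used here says if the counting was stranded. The deposited table holds expected counts (estimated counts, in steps of 0.5, not normalized) for 70507 transcripts in 12 libraries. Transcripts took their gene from RefSeq GRCh38.p14 or, for 349, from GENCODE release 29. The 334 without a name, with 0.0584% to 0.0623% of each library's counts, were left out. For each gene the transcript with the largest sum over the libraries was used, rounded to whole counts.

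Tests used edgeR 4.0.16 in R 4.3.3, with TMM scaling (factors 0.993 to 1.007), the default filter on low counts and a 2-sided quasi-likelihood test. The model had 1 term per group, 12 libraries and 8 residual degrees of freedom, and its biological coefficient of variation was 2.59%. Benjamini-Hochberg adjustment ran over all 13116 tested genes in each of 6 comparisons. Fold changes are log2 values. Their SE was taken as the absolute log2 fold change divided by the square root of the test's F statistic. The edgeR test was also run on counts simulated from its own fit, and the outcome is not given here. The simulated libraries were independent, so this cannot show whether replicates were technical or paired. Floors of 3 counts cover counting error only, since reads carry no molecular identifiers. Alternatives used DESeq2 1.42.0, limma 3.58.1 (voom), other scalings and filters, 2 groups at a time, a replicate block, the sum over transcripts and each library left out.

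The members, the gene lists and the tests were chosen with earlier results of these data known. The rule for named genes gave, with values in every library, each member called in any comparison, and of the pathway lists IFNB1, IFNAR1, IFNAR2, IRF1, IRF3 and up to 4 called genes per list with the smallest adjusted p in M1 EV against Ctrl. A gene that the rule also names is not reported here and was left out of the list counts. Promoters were printed for up to 3 called members in each direction with the largest change, where the table held them. Other members, the markers and LIPA were given with values after these had been seen. A column whose name lacks a digit of MV3 was assigned to M0 EV replicate 1, since every other library had a column of its own.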

Additional observations from a re-analysis of the deposited data

How the results depend on the processing

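No member that was called changed direction under any alternative, and of 494 gene results under alternatives 55 lost their call. IFIT1, IFIT2, SAMD9, SAMD9L, OAS3 and IRF9 kept their calls in all 3 comparisons with M1 EV under every alternative run, as did BST2 and PARP9 in M1 EV against M0 EV. DESeq2 called 5 members higher in M1 EV against M0 EV and 2 in M1 EV against M2 EV, against 10 and 5 with edgeR. It also called fewer of all genes, 2224 and 2105 in that order, against 3323 and 3227 with edgeR. The cause was not tested. With a library left out, the members called higher numbered 3 to 6 in M1 EV against Ctrl, 6 to 8 in M1 EV against M0 EV and 2 to 7 in M1 EV against M2 EV, and the members called lower numbered 4 to 5, 4 and 4 to 5. Of all genes, 3048 to 3313, 2648 to 3119 and 2550 to 2888 were then called, in the same order. With all libraries these were 3682, 3323 and 3227. With edgeR's test on the sum over transcripts, BST2 and IFITM3 lost their calls against Ctrl, DTX3L, IFI44 and IFI6 against M0 EV, and BST2 and IFI44 against M2 EV. BST2 and DTX3L had 1 transcript each, so their own counts were unchanged there. The genes tested with them numbered 13664 instead of 13116. With DESeq2, calls were lost by IFITM3 against Ctrl, by DTX3L, IFI44, IFI6, OASL and XAF1 against M0 EV, and by BST2, IFI44 and OASL against M2 EV. With only the 2 groups compared in the edgeR fit, IFITM3 lost its call against Ctrl, and DTX3L and IFI6 lost theirs against M0 EV. DTX3L against M0 EV was also lost with no filter on low counts, IFI6 against M0 EV with limma-voom and IFI44 against M2 EV with upper-quartile scaling. In no comparison did all 3 same-numbered pairs of libraries correlate above 0.1, a bound that cannot exclude pairing. After removal of group means, these pairs correlated at 0.13, 0.053 and 0.18 in M1 EV against M2 EV. They correlated at 0.22, 0.051 and -0.0013 in M1 EV against M0 EV and at -0.090, -0.11 and -0.13 in M1 EV against Ctrl. Whether replicate numbers pair the libraries was thus not settled. With the replicate number as a block, 6 members were higher and 4 lower in M1 EV against Ctrl, 10 and 4 in M1 EV against M0 EV and 6 and 5 in M1 EV against M2 EV. Of all genes, 3757, 3417 and 3318 were called with the block, in the same order. M0 EV replicates 2 and 3 differed little beyond sampling noise (a chi-square of 1.04 per degree of freedom, against 1.24 to 2.34 for the other pairs of a group). Summing them, an alternative chosen after seeing the data, gave 10 higher and 4 lower in M1 EV against M0 EV, where 3069 of all genes were called. Depth limits the 11 tested members under 5 CPM and the 6 that were not tested.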
